A study of Homo sapiens with 6 samples.

Results

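The genes described here encode the catalytic core of Polycomb repressive complex 1 (PRC1) and the subunits that sort it into different complexes. The set is 10 of the 53712 genes in the count table, chosen by symbol: the catalytic RING proteins RNF2 and RING1, the 6 PCGF paralogs PCGF1, PCGF2, PCGF3, PCGF5, PCGF6 and BMI1 (also called PCGF4), and the variant-complex subunits KDM2B and RYBP. Levels were measured by RNA-seq of poly(A) RNA from H9, an established human embryonic stem cell line that was kept in PXGL medium and is called naive in the study's design. The 3 ASO-L1 libraries came from cells transfected with 25 nM of an antisense oligonucleotide against LINE-1, the retrotransposon family still active in the human genome, and the 3 SO-L1 libraries from cells given the matching sense oligonucleotide. In both groups 0.7 uM trans-ISRIB (a blocker of the integrated stress response), 5 uM emricasan (a caspase inhibitor) and 10 uM of the ROCK inhibitor Y-27632 were present until 24 hours, and unsorted cells were collected at 48 hours. All libraries are of 1 cell line. The labels do not state whether the 3 libraries of a group were grown and transfected separately, so p-values measure the spread between these libraries, which may be technical. LINE-1 RNA itself is not analysed here.

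PRC1 is a ubiquitin ligase. It places a single ubiquitin on histone H2A at genes that are to stay silent, and its catalytic heart is a RING protein, RNF2 or RING1, held against 1 PCGF partner. The PCGF partner decides which complex forms. PCGF2 and BMI1 can join CBX and PHC proteins in canonical PRC1, which is drawn to the PRC2 mark on histone H3 and compacts chromatin, whereas PCGF1, PCGF3, PCGF5 and PCGF6 form variant complexes that carry RYBP or its paralog YAF2. KDM2B brings the PCGF1 complex to unmethylated CpG islands, and the PCGF6 complex is known for silencing germline genes in mouse embryonic stem cells.

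PCGF1 and BMI1 were higher in ASO-L1 cells, by 3.41-fold and 2.10-fold, and PCGF2 and PCGF6 were higher by 1.29-fold and 1.22-fold. PCGF3, PCGF5, the catalytic genes RNF2 and RING1, and KDM2B and RYBP did not pass the test. All 10 members had enough reads to be tested, 4 were called higher and 0 lower, and the 4 called were all PCGF paralogs. Calls were made at an adjusted p under 0.05, from edgeR's quasi-likelihood fit and Benjamini-Hochberg adjustment across the 16873 genes tested. By that rule 33.7% of all tested genes were called, 18.0% higher and 15.7% lower, so 4 called of 10 lies close to the share called in either direction. A called rise of 2-fold or more, found for PCGF1 and BMI1, was found for 3.91% of tested genes. No member was lower at an unadjusted p under 0.05, and DESeq2 and limma-voom likewise called 4 higher and 0 lower, where they called 17.4% and 18.0% of all tested genes higher. The members' median log2 fold change was 0.20, against -0.01 over all tested genes. The count of members called higher was 2 without SO-L1 replicate 1, where 10.1% of tested genes were higher, and 2 without SO-L1 replicate 3 (9.41%). It was 1 without both libraries of replicate 1 (4.45%) and 2 without both libraries of replicate 3 (9.64%).

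**Figure D1:**
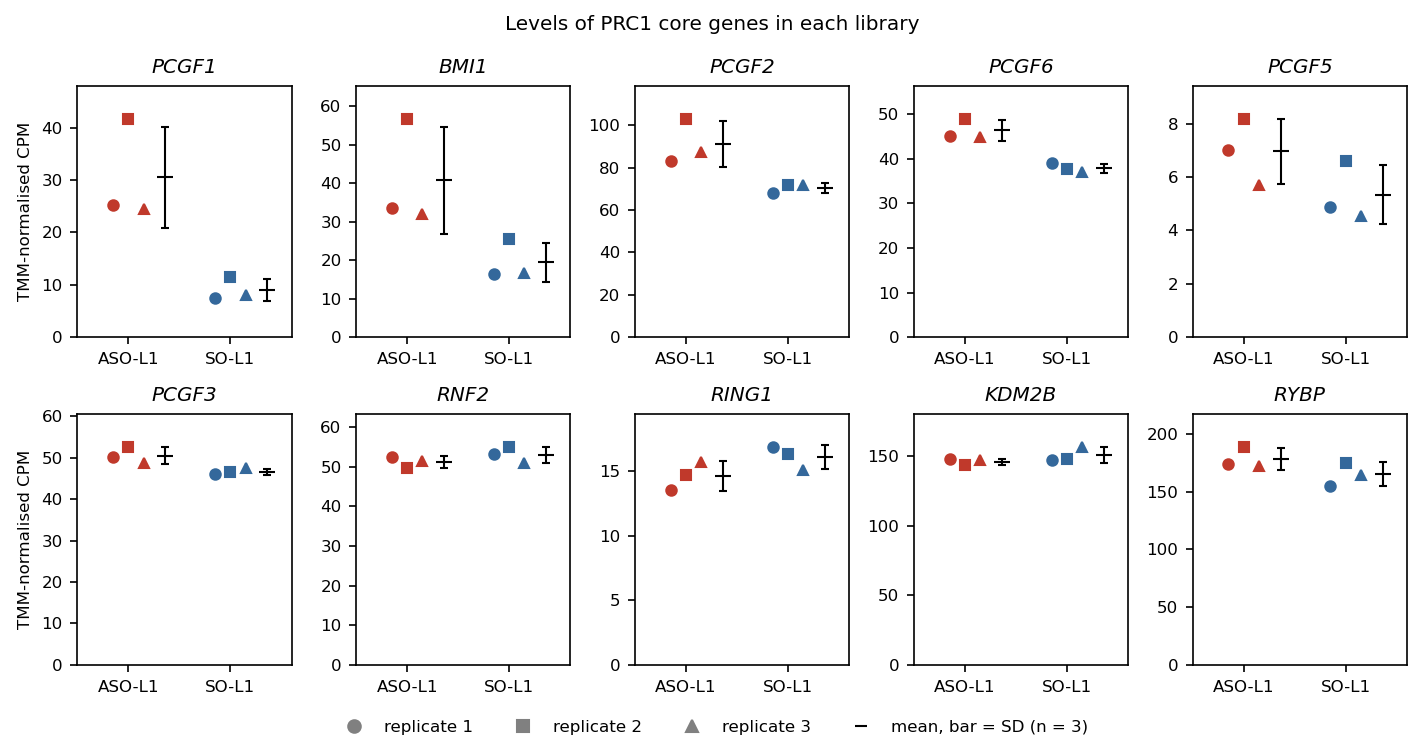
TMM-normalised CPM (read counts scaled to a common library size) of each gene in every library, ASO-L1 libraries in red and SO-L1 libraries in blue, with marker shape for the replicate number and black bars for mean ± SD (n = 3). PCGF1 and BMI1 do not overlap between the groups and have the highest value of each group in replicate 2, while RNF2, RING1, KDM2B and RYBP overlap.

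The catalytic subunits showed no detectable change. Levels are given as CPM, read counts scaled to a common library size with TMM factors. RNF2 (RING1B), the main ligase subunit in mouse embryonic stem cells, had 52.5, 49.7 and 51.5 CPM in ASO-L1 replicates 1, 2 and 3, against 53.1, 55.1 and 50.9 CPM in SO-L1 replicates 1, 2 and 3. The groups overlapped, with a log2 fold change of -0.05 ± 0.07 (SE) and a 95% interval of -0.203 to 0.104. Its paralog RING1 (RING1A) had 13.5, 14.7 and 15.7 CPM in ASO-L1 libraries and 16.9, 16.3 and 15.1 CPM in SO-L1 libraries. These values overlapped as well, and the interval of -0.357 to 0.0895 around -0.13 ± 0.10 leaves room for a small decrease. The log2 ratio of RNF2 to RING1 reads within a library averaged 1.81 ± 0.14 in ASO-L1 and 1.72 ± 0.06 in SO-L1 (SD, n = 3 each), a difference of 0.09 with an exact two-sided permutation p of 0.6.

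PCGF1, the PCGF subunit of the KDM2B and BCOR complex, changed most among the members. It had 25.3, 41.7 and 24.5 CPM in ASO-L1 replicates 1, 2 and 3, against 7.46, 11.4 and 8.09 CPM in SO-L1 replicates 1, 2 and 3. The lowest ASO-L1 library lay above the highest SO-L1 library, and replicate 2 was the highest of both groups. The log2 fold change was 1.77 ± 0.25 (SE), with a 95% interval of 1.2 to 2.34 and an adjusted p of 0.00282 by edgeR. Within replicate numbers 1, 2 and 3 the difference was 1.75, 1.86 and 1.59 log2 units, and the call held under all 15 alternatives tried. Among the tested genes 237 had a larger log2 fold change than PCGF1.

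BMI1, a PCGF subunit of canonical PRC1 known for keeping adult stem cells dividing, rose in the same libraries. Its levels were 33.6, 56.7 and 31.9 CPM in ASO-L1 libraries and 16.3, 25.4 and 16.6 CPM in SO-L1 libraries. The groups did not overlap, and replicate 2 was again the highest of both. The log2 fold change was 1.07 ± 0.28 (95% interval 0.405 to 1.74, adjusted p = 0.0274 by edgeR), and the differences within replicate numbers 1, 2 and 3 were 1.04, 1.16 and 0.94. The call ended without SO-L1 replicate 1 (adjusted p = 0.0501) or 3 (0.0809), without both libraries of replicate 1 (0.0616) or 3 (0.0818), and with no filter on low counts (0.128). With the replicate number as a block the adjusted p was 3.08e-08. A readthrough gene joins BMI1 to its neighbour COMMD3 in the RefSeq annotation. Reads on it are not analysed here, and how the counting shared them with BMI1 is not given in the sources used here, so the level of BMI1 is uncertain to that extent.

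Promoter sequence is shown for PCGF1 and BMI1, the members at least 2-fold higher, so that the letters around their start sites can be read beside the values. The sequences come from RefSeq (GRCh38.p14), cover 250 bases before to 50 bases after a start, and read 5′ to 3′ on the gene's strand. PCGF1 has 1 listed start, at chr2:74507646-74507945 on the minus strand, and BMI1 has 2, at chr10:22320849-22321148 and chr10:22321706-22322005 on the plus strand. Capitals mark matches on either strand to the ETS motif CCGGAAG, the E-box CACGTG or the EGR motif GCGTGGGCG.
PCGF1: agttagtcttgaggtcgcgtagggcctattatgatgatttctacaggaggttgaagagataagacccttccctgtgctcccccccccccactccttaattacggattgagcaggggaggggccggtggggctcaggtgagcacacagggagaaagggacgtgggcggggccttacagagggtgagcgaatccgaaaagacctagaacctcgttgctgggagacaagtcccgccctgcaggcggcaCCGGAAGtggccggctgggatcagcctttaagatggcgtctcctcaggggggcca
BMI1 first start: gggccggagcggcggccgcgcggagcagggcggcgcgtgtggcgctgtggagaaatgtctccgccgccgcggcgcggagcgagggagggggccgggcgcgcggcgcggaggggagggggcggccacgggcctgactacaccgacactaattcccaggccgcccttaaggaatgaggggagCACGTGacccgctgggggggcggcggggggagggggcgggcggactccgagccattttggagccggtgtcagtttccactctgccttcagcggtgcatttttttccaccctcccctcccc
BMI1 second start: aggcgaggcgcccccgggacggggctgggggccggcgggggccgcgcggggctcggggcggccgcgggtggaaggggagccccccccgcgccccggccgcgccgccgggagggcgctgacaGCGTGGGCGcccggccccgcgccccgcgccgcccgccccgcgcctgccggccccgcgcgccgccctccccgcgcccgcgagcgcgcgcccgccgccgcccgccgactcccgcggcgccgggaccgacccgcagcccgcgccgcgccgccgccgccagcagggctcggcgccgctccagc

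The 3 windows differ in make-up. PCGF1 has 59.7% G and C with 14 CpG pairs, near the medians of 58.7% and 14 over 34796 RefSeq promoter windows, whereas the BMI1 windows have 73.3% and 91.0% with 36 and 65 CpG pairs. The ETS match begins 5 bases before the PCGF1 start, and 10.2% of all windows hold this motif. In the first BMI1 window the E-box begins 70 bases before the start (7.20% of windows), and in the second the EGR match begins 129 bases before it (0.793% of windows). No match to the CRE (TGACGTCA), AP-1 (TGANTCA), NRF1, CCAAT box (CCAAT) or TATA box (TATAAA) motifs was found in these windows, and 1.84%, 7.73%, 1.23%, 34.6% and 11.6% of all windows hold them in that order. The GC box GGGCGG, which 44.9% of windows hold, occurred 2 times for PCGF1 and 6 and 5 times for BMI1. All motifs were searched on both strands. In the 17 windows of the 10 members the EGR motif had 1 further match, for PCGF3, where it overlapped a GC box, and PCGF3 was not called.

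PCGF2 (MEL18), the other PCGF of canonical PRC1, rose by less. It had 82.9, 103 and 87.1 CPM in ASO-L1 libraries and 67.8, 71.8 and 71.7 CPM in SO-L1 libraries, with no overlap and the highest value in ASO-L1 replicate 2. The log2 fold change was 0.37 ± 0.09 with an adjusted p of 0.00984 by edgeR, and the call ended without SO-L1 replicate 1 (adjusted p = 0.0543) or without both libraries of replicate 1 (0.0616). PCGF6, which joins MGA, MAX and L3MBTL2 in the germline-gene silencing complex, had 45.0, 48.9 and 44.9 CPM in ASO-L1 libraries and 38.9, 37.6 and 36.9 CPM in SO-L1 libraries. Again the groups did not overlap. Its log2 fold change was 0.29 ± 0.07 (adjusted p = 0.0137 by edgeR), and the call ended without SO-L1 replicate 3 (0.0693) or without both libraries of replicate 1 (0.0894) or 3 (0.119).

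PCGF3 and PCGF5 are close paralogs whose complexes spread ubiquitinated H2A widely and act early in X inactivation in mouse cells. Neither was called. PCGF5 had the fewest reads of the set, 139 to 186 a library, and measured 7.02, 8.16 and 5.71 CPM in ASO-L1 libraries against 4.86, 6.59 and 4.53 CPM in SO-L1 libraries. The groups overlapped because SO-L1 replicate 2 lay above ASO-L1 replicate 3, while each replicate number on its own was higher in ASO-L1, by 0.52, 0.30 and 0.33 log2 units for numbers 1, 2 and 3. The log2 fold change of 0.39 ± 0.18 had an adjusted p of 0.126 by edgeR. With the replicate block it had an adjusted p of 0.0173, without SO-L1 replicate 2 0.0426 and without both libraries of replicate 2 0.0183. PCGF3 had 50.1, 52.7 and 48.7 CPM in ASO-L1 libraries and 46.0, 46.5 and 47.4 CPM in SO-L1 libraries. All its ASO-L1 libraries were higher, yet the change was 0.12 ± 0.07 with an adjusted p of 0.222. In all, 5 of the 10 members had every ASO-L1 library above every SO-L1 library, against 25.8% of tested genes, and all 6 PCGF paralogs were higher in 3 of 3 replicate numbers, as were 33.8% of tested genes.

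KDM2B and RYBP, subunits of variant PRC1, gave no call. KDM2B, a CpG island binding protein that anchors the PCGF1 complex, had 148, 144 and 147 CPM in ASO-L1 libraries and 147, 148 and 157 CPM in SO-L1 libraries. The groups overlapped, and the interval of the log2 fold change ran from -0.173 to 0.0897. RYBP, which binds the RING proteins and stimulates H2A ubiquitination, had 174, 189 and 172 CPM in ASO-L1 libraries and 155, 175 and 164 CPM in SO-L1 libraries. ASO-L1 replicates 1 and 3 lay just below the highest SO-L1 library, and the change was 0.12 ± 0.07 (adjusted p = 0.217 by edgeR, interval -0.0371 to 0.268). The log2 ratio of PCGF1 to KDM2B reads averaged -2.30 ± 0.45 in ASO-L1 and -4.09 ± 0.34 in SO-L1 (SD, n = 3 each), and this ratio did not overlap between the groups.

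**Figure D2:**
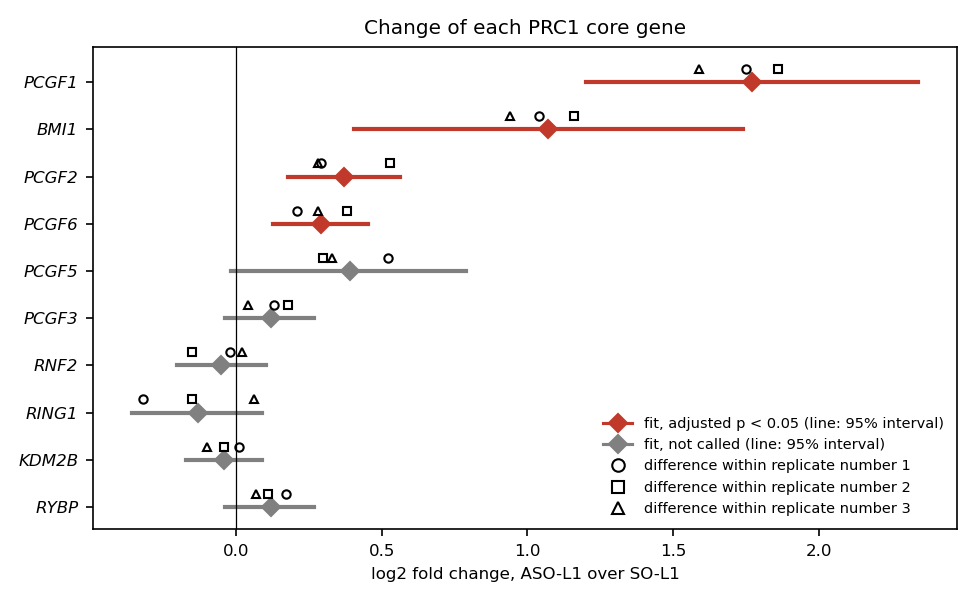
Log2 fold change of ASO-L1 over SO-L1 for each member (diamond) with its 95% interval (line), in red where the adjusted p was under 0.05, and the difference within each replicate number (open markers). For PCGF1 the 3 differences of 1.59 to 1.86 sit close together although its level varies between replicates, and the intervals of RNF2, RING1, KDM2B, RYBP, PCGF3 and PCGF5 include 0.

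In the authors' deposited table the log2 fold change was 1.73 for PCGF1 (adjusted p = 0.0023), 1.04 for BMI1 (0.0102), 0.35 for PCGF2 (0.0237) and 0.28 for PCGF6 (0.0432), the same 4 members as above. Its other 6 members had adjusted p-values from 0.153 for PCGF5 to 0.634 for RNF2, and 21.4% of the 20964 genes in the authors' deposited table were called. The model behind that table is not given in the sources used here, and both sets of values come from the same libraries.

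The PCGF paralogs were next set against each other per length of transcript, since longer transcripts give more reads. Per kilobase of annotated exon (GENCODE 29), PCGF2 was the most abundant of the 6, at 26.0 ± 3.09 CPM per kb in ASO-L1 and 20.1 ± 0.651 in SO-L1 (SD, n = 3 each). PCGF6 followed at 15.4 ± 0.759 in ASO-L1 and 12.6 ± 0.346 in SO-L1. PCGF1 had 11.6 ± 3.68 in ASO-L1 and 3.42 ± 0.804 in SO-L1, and BMI1 9.51 ± 3.24 in ASO-L1 and 4.53 ± 1.2 in SO-L1. PCGF3 had 6.80 ± 0.276 in ASO-L1 and 6.28 ± 0.0986 in SO-L1, and PCGF5 was the lowest at 0.838 ± 0.147 in ASO-L1 and 0.642 ± 0.133 in SO-L1. PCGF1 and BMI1 therefore lay above PCGF3 in every ASO-L1 library and below it in every SO-L1 library on this scale. The ranges of PCGF1 and BMI1 overlapped within each group. Library by library, PCGF1 lay above BMI1 throughout ASO-L1 and below it throughout SO-L1. Among the other members RYBP had 24.7 ± 1.33 CPM per kb in ASO-L1 and 22.8 ± 1.43 in SO-L1, RNF2 12.6 ± 0.349 in ASO-L1 and 13 ± 0.511 in SO-L1, and RING1 8.06 ± 0.631 in ASO-L1 and 8.85 ± 0.506 in SO-L1. KDM2B, at 10.7 ± 0.172 in ASO-L1 and 11.1 ± 0.433 in SO-L1, depends most on the length used, because its annotated exons span 13623 bases and its longest coding transcript 5224.

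As a share of the 6 paralogs' summed level per kb, PCGF1 took 15.1%, 19.1% and 14.6% in ASO-L1 replicates 1, 2 and 3, against 6.21%, 8.62% and 6.61% in SO-L1 replicates 1, 2 and 3. The share of BMI1 was 12.3%, 16.0% and 11.7% in ASO-L1 and 8.31%, 11.8% and 8.34% in SO-L1. The BMI1 shares overlapped, the PCGF1 shares did not. PCGF2 took 37.2% ± 1.69 in ASO-L1 and 42.3% ± 1.58 in SO-L1, and PCGF6 22.2% ± 2.22 in ASO-L1 and 26.5% ± 1.74 in SO-L1, so that both had a smaller share in ASO-L1 although their CPM were higher. The summed level of the paralogs was 63.7, 82.9 and 63.7 CPM per kb in ASO-L1 libraries and 45.7, 50.3 and 46.6 in SO-L1 libraries. For the PCGF1, PCGF2, PCGF3 and PCGF6 shares and for the sum the exact two-sided permutation p was 0.1. That is the smallest that 3 against 3 libraries allow. The same test gave 0.2 for the BMI1 share and 0.5 for the PCGF5 share. Shares make up a whole, so larger shares of some paralogs lower those of the others, and they are not separate results. With the longest coding transcript as the length, PCGF1 took 18.8% ± 2.76 in ASO-L1 and 8.36% ± 1.5 in SO-L1.

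**Figure D3:**
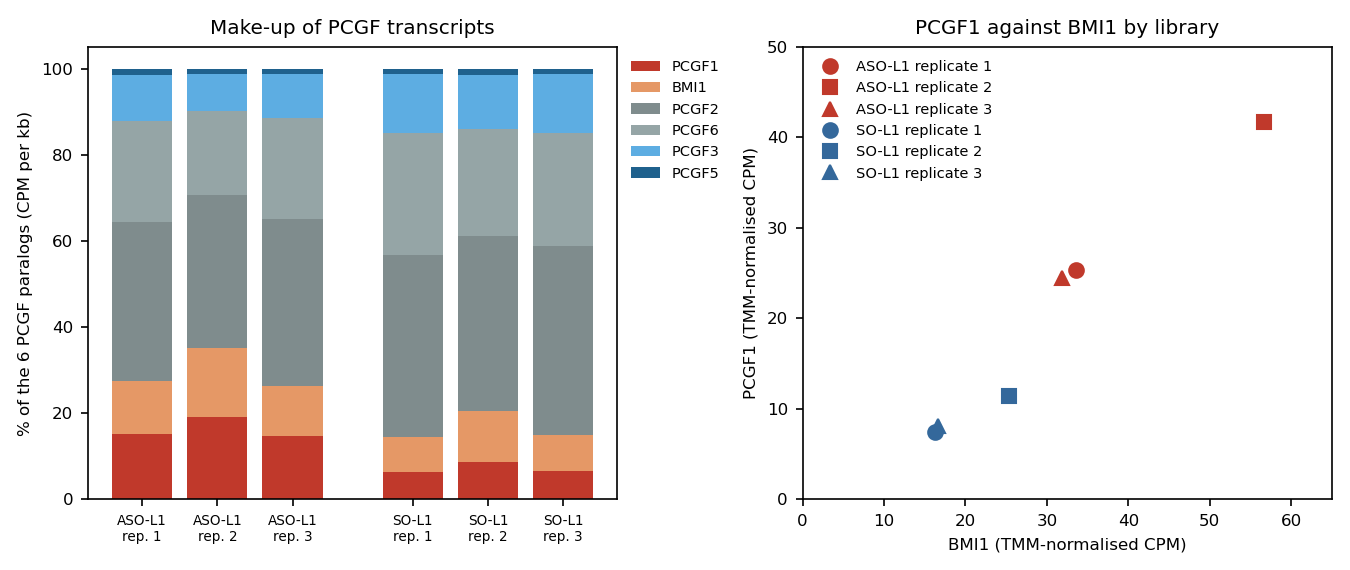
Left, share of each PCGF paralog in the summed CPM per kb of the 6, by library; right, PCGF1 against BMI1 in TMM-normalised CPM, with ASO-L1 in red, SO-L1 in blue and marker shape for the replicate number. PCGF1 makes up 14.6% to 19.1% of the bars in ASO-L1 and 6.21% to 8.62% in SO-L1, and replicate 2 is highest for both genes in both groups.

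The PCGF1 and BMI1 reads kept a nearly fixed ratio within each group. The log2 ratio of PCGF1 to BMI1 was -0.41, -0.44 and -0.38 in ASO-L1 libraries and -1.12, -1.15 and -1.04 in SO-L1 libraries. It was higher by 0.70 in ASO-L1, with a spread within groups of 0.03 (SD) in ASO-L1 and 0.06 in SO-L1, even though replicate 2 had much more of both transcripts. Ratios to genes outside the members were not taken, so whether so fixed a ratio is unusual was not tested. Of the 8 member pairs compared by such ratios, 7 did not overlap between groups. Their exact two-sided permutation p was 0.1 (0.114 adjusted over the 8), which is the smallest possible here. Each of the 7 holds PCGF1 or BMI1, the most changed members, so the 7 restate those changes and are not separate results. The log2 ratio of PCGF1 reads was higher in ASO-L1 by 1.38 against PCGF2, 1.63 against PCGF3, 1.35 against PCGF5 and 1.45 against PCGF6. The ratio of PCGF2 to BMI1, the alternative PCGF subunits of canonical PRC1, averaged 1.21 ± 0.30 in ASO-L1 and 1.89 ± 0.34 in SO-L1.

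For each called member the 2 genes with the most similar profile were sought among 12975 others that averaged at least 1 on the log2 CPM scale, by the root mean square difference of log2 CPM centred over the 6 libraries. NXF1, the main mRNA export receptor, was nearest to PCGF1 (0.068), with 275 ± 95.8 CPM in ASO-L1 and 82.7 ± 14.0 CPM in SO-L1, followed by the actin regulator WHAMM (0.0828). CHST3, a sulfotransferase gene (0.0448), and EFNB2, which encodes ephrin-B2 (0.0546), were nearest to BMI1. LRWD1 (0.0229) and the methyl-CpG binding protein gene MBD1 (0.0256) were nearest to PCGF2, and CHTOP (0.0122) and RTFDC1 (0.0125) to PCGF6. Likeness over 6 libraries in 2 groups can reflect the shared difference between groups as well as shared differences of replicate 2, and these parts were not separated.

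Partner genes of PRC1 moved in both directions. Of 42 partners in 6 lists, all tested, 6 were called higher and 6 lower, and their median log2 fold change was 0.0. Over all tested genes 18.0% were called higher and 15.7% lower, so these counts do not stand out from the shares over all genes. Under the replicate block 10 were higher and 10 lower, where 23.3% and 22.5% of all tested genes were called higher and lower. In canonical PRC1, 2 of 9 rose and 3 fell. CBX7, a reader of the PRC2 mark, had 2.15, 1.89 and 2.34 CPM in ASO-L1 libraries and 5.50, 3.82 and 4.44 CPM in SO-L1 libraries, a log2 fold change of -1.11 ± 0.19 (adjusted p = 0.00297 by edgeR). Another reader, CBX8, had 1.90, 2.94 and 1.59 CPM in ASO-L1 libraries and 0.736, 1.3 and 1.17 CPM in SO-L1 libraries (1.0 ± 0.30, adjusted p = 0.0283 by edgeR), and lost its call without ASO-L1 replicate 2 (0.0781), SO-L1 replicate 1 (0.117) or 3 (0.0681), or both libraries of replicate 1 (0.162). CBX7 and CBX8 thus lay on opposite sides with no overlap in either. Among the PHC genes, whose proteins polymerise and cluster PRC1, PHC2 was higher (0.88 ± 0.18) and PHC3 lower (-0.38 ± 0.12). The call of PHC3 ended without ASO-L1 replicate 1 (0.0767) or 2 (0.063), without SO-L1 replicate 2 (0.0998) or 3 (0.10), and without both libraries of any replicate number. SCML2 fell by 0.51 on the log2 scale. CBX7 (0.0577), PHC2 (0.0532) and SCML2 (0.0526) were lost without both libraries of replicate 1. CBX2 (-0.30 ± 0.11, adjusted p = 0.0519) was not called, but was with the block (0.00107), with low counts unfiltered (0.00238), by DESeq2 (0.0389), and without ASO-L1 replicate 3 (0.0349) or SO-L1 replicate 2 (0.0265).

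In the PCGF1 complex list 1 of 4 rose and 1 fell, where 18.0% of all tested genes were called higher and 15.7% lower. BCOR, the corepressor that PCGF1 binds, had 195, 192 and 190 CPM in ASO-L1 libraries and 160, 170 and 168 CPM in SO-L1 libraries (0.22 ± 0.06, adjusted p = 0.0162 by edgeR). Its paralog BCORL1 fell by 0.46, while SKP1 (adjusted p = 0.996) and USP7 (0.125) were not called. BCOR was lost without ASO-L1 replicate 1 (0.0531), SO-L1 replicate 1 (0.0629) or 3 (0.0623), or both libraries of replicate 1 (0.166) or 3 (0.131), and BCORL1 without both libraries of replicate 1 (0.0565) or 3 (0.0583). No gene of this list changed by as much as PCGF1.

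Partners of PCGF3 and PCGF5 had 1 of 7 higher and 2 lower, beside shares of 18.0% higher and 15.7% lower over all tested genes. AUTS2, which turns this complex toward activation in the mouse brain, had 132, 118 and 138 CPM in ASO-L1 libraries and 152, 151 and 177 CPM in SO-L1 libraries (-0.30 ± 0.08, adjusted p = 0.0189 by edgeR). DCAF7, an adaptor protein gene, fell by 0.43, and the casein kinase 2 subunit gene CSNK2A2 rose by 0.18 (adjusted p = 0.0381). The call of AUTS2 ended without ASO-L1 replicate 1 (0.0505), SO-L1 replicate 3 (0.0927) or both libraries of replicate 1 (0.111) or 3 (0.0971), and that of DCAF7 without both libraries of replicate 1 (0.0604). CSNK2A2 was lost with no filter (0.131), without ASO-L1 replicate 1 (0.11) or 3 (0.0752), SO-L1 replicate 1 (0.12) or 3 (0.124), or both libraries of replicate 1 (0.266) or 3 (0.215). FBRS (0.00402) and FBRSL1 (0.0222) were not called, but were with the block.

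Of 9 partners of PCGF6 only L3MBTL2 was called, at 47.8 ± 0.881 CPM in ASO-L1 and 41.6 ± 1.35 CPM in SO-L1 (0.20 ± 0.07, adjusted p = 0.0487 by edgeR). DESeq2 did not call it (0.0583), nor did the fit without a filter (0.17) or any fit that left out 1 library (0.0551 to 0.147). Over all tested genes 18.0% were called higher and 15.7% lower, and 23.3% and 22.5% under the block. Under the block 3 of the 9 were called, L3MBTL2 higher (0.0284) and E2F6 (0.0317) and HDAC2 (0.0189) lower. MGA, the scaffold of this complex, was at 169 ± 6.09 CPM in ASO-L1 and 178 ± 12.6 CPM in SO-L1 (adjusted p = 0.403). YAF2, the paralog that can replace RYBP, was at 3.07 ± 0.532 CPM in ASO-L1 and 3.75 ± 0.472 CPM in SO-L1 and was not called (0.235). Of 12 genes of histone H2A deubiquitination, 1 was called, the deubiquitinase gene MYSM1, at 247 ± 8.83 CPM in ASO-L1 and 213 ± 14.5 CPM in SO-L1 (0.21 ± 0.07, 0.0322). MYSM1 was lost without ASO-L1 replicate 1 (0.0983) or 3 (0.0632), SO-L1 replicate 1 (0.118) or 3 (0.103), or both libraries of replicate 1 (0.277) or 3 (0.172). Under the block 4 of the 12 were called, all higher, against 23.3% of all tested genes. These were ASXL1 (0.0321), FOXK1 (0.0209), HCFC1 (0.00957) and MYSM1 (0.0106). BAP1, the catalytic subunit of the main H2A deubiquitinase, was at 94.0 ± 1.42 CPM in ASO-L1 and 93.7 ± 2.94 CPM in SO-L1.

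**Figure D4:**
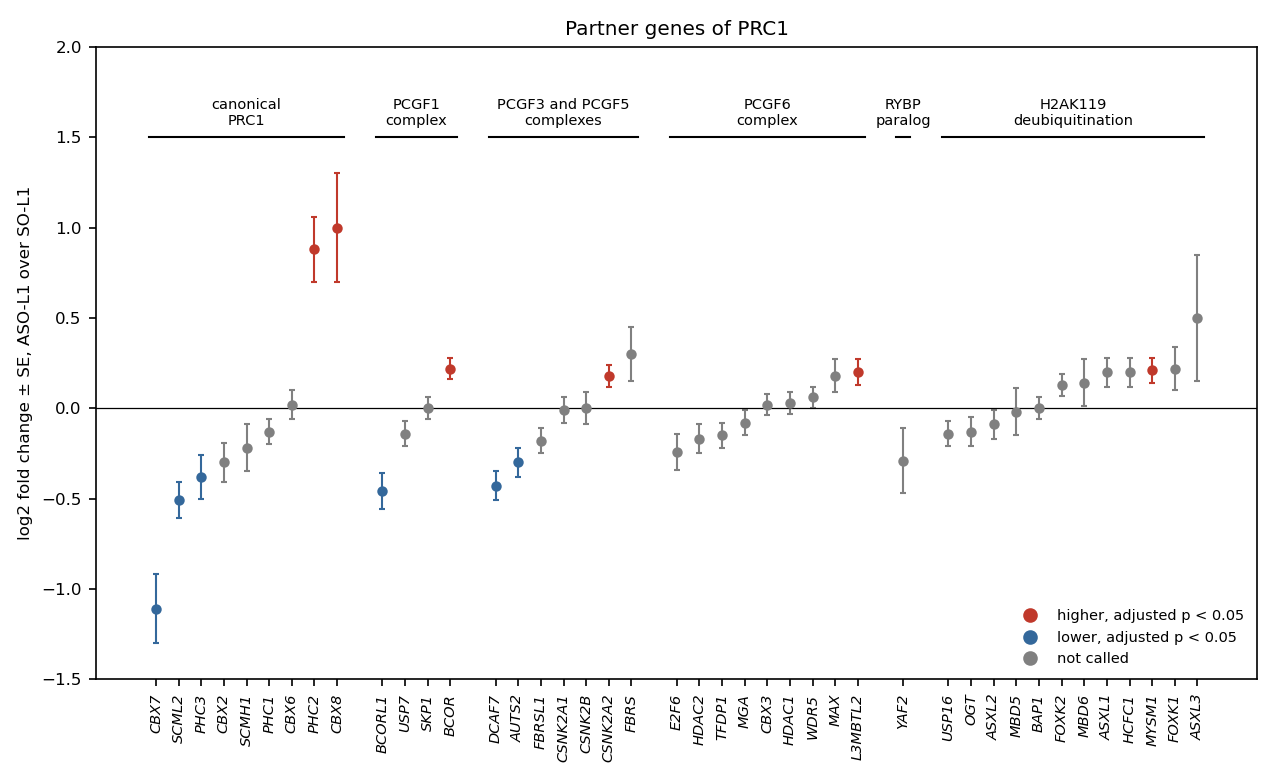
Log2 fold change ± SE of 42 partner genes by complex, red where higher and blue where lower at an adjusted p under 0.05 and grey where not called. Canonical partners span the widest range, from -1.11 for CBX7 to 1.0 for CBX8, and partners of the PCGF6 complex stay between -0.24 and 0.20.

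Neighbouring genes were examined because reads of overlapping or adjoining genes can be miscounted. Of 25 overlapping or nearest genes of the members in the RefSeq order that are in the table, 16 were tested, 2 were called higher and 1 lower. The shares over all tested genes were 18.0% higher and 15.7% lower, and 23.3% and 22.5% under the replicate block. Under the replicate block 3 were higher and 5 lower, adding INA beside PCGF6 (higher, 0.000611) and TRMT1L beside RNF2 (0.031), ORAI1 beside KDM2B (0.034), LBX2-AS1 and CISD3 (lower). The noncoding RNA gene LBX2-AS1, which overlaps PCGF1, had 1.9, 3.38 and 1.66 CPM in ASO-L1 libraries and 2.02, 4.84 and 2.81 CPM in SO-L1 libraries. These groups overlapped (-0.48 ± 0.37, adjusted p = 0.338 by edgeR, 0.0412 with the block), and since the strand setting of the counting is not given in the sources used here, reads of the overlap cannot be told apart. LBX2 and TLX2, the nearest genes on either side of PCGF1, stayed under 1 CPM on average and were not called. COMMD3, next to BMI1, averaged 1.39 ± 0.264 CPM in ASO-L1 and 1.24 ± 0.471 CPM in SO-L1 and was not called (0.732). TAF5, beside PCGF6 and a subunit of the general factor TFIID, rose with it, at 35.6, 45.4 and 35.1 CPM in ASO-L1 libraries and 27.7, 24.0 and 27.1 CPM in SO-L1 libraries (0.56 ± 0.11, 0.00519), a call lost without both libraries of replicate 1 (0.051). HECTD2 beside PCGF5 was also higher (0.39 ± 0.13, 0.0387) but lost its call without any single library other than ASO-L1 replicate 3 (0.0521 to 0.129). HECTD2 was lost as well with no filter (0.0695) and without both libraries of replicate 1 (0.205) or 3 (0.115). ANAPC5 beside KDM2B was lower (-0.26 ± 0.08, 0.0237). Its call was lost without ASO-L1 replicate 1 (0.0593), SO-L1 replicate 1 (0.0959) or 3 (0.0892), or both libraries of replicate 1 (0.196) or 3 (0.0889). CISD3, which overlaps PCGF2 (0.0704, 0.039 with the block), and RNF34, which overlaps KDM2B (0.153), were not called.

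Library totals ran from 23330875 to 31164287 counts. Replicate 2 stood apart in both groups on the first principal component of log2 CPM (68.8% of variance), at 58.9 in ASO-L1 against 22.3 and 18.9 for ASO-L1 replicates 1 and 3, and at -21.3 in SO-L1 against -38.3 and -40.5 for SO-L1 replicates 1 and 3. Pluripotency markers POU5F1, NANOG, SOX2 and LIN28A summed to 2670 to 3100 CPM in ASO-L1 libraries and 3120 to 3440 CPM in SO-L1 libraries and were not called, with adjusted p-values of 0.0553 to 0.318 by edgeR. Under the replicate block 3 of the 4 were called lower, NANOG (0.00396), LIN28A (0.0301) and POU5F1 (0.0391), where 22.5% of all tested genes were. Naive markers summed to 143 to 168 CPM in ASO-L1 and 187 to 206 CPM in SO-L1. Of 6 tested, 1 was higher and 3 lower, where 18.0% of all tested genes were called higher and 15.7% lower. KLF17, a defining naive factor, was low in both groups, at 0.395 ± 0.146 CPM in ASO-L1 and 0.743 ± 0.196 CPM in SO-L1. Primed markers had 3 of 4 higher, against 18.0% of all tested genes. They summed to 79.2 to 102 CPM in ASO-L1 and 50.6 to 63.6 CPM in SO-L1. Of other lineages, trophectoderm markers had 2 of 5 called higher, CDX2 and TFAP2A, and primitive endoderm markers 2 of 5, GATA6 and SOX17, where 18.0% of all tested genes were. The summed levels of both lists overlapped between groups, at 15.5 to 27.8 CPM in ASO-L1 and 13.2 to 15.6 CPM in SO-L1 for trophectoderm and at 7.92 to 13.2 CPM in ASO-L1 and 7.50 to 8.59 CPM in SO-L1 for primitive endoderm. The most abundant trophectoderm gene was KRT7, at 10.1 ± 0.882 CPM in ASO-L1 and 9.36 ± 0.794 CPM in SO-L1. GATA3, CDX2, TFAP2A, GATA6 and SOX17 each had every ASO-L1 library above every SO-L1 library, as did 25.8% of tested genes. PDGFRA had every ASO-L1 library below, and the remaining genes of both lists overlapped. Fibroblast markers had 2 of 5 called higher, COL1A1 and TWIST1, against 18.0% of all tested genes. They summed to 554 to 639 CPM in ASO-L1 and 476 to 542 CPM in SO-L1. The other 3 genes of each list were not called, and under the block GATA3 (0.00742) and COL3A1 (0.00425) were called higher too, as were the primed marker ZIC2 (0.0193) and, lower, the naive marker DPPA5 (3.21e-07). No marker of these 3 lists was under 0.1 CPM in every library, and their part in the PCGF changes was not tested. In bulk RNA a change in the number of cells of a type and a change in RNA per cell cannot be told apart.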

How the data were processed

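Starting points were the deposited raw read counts per gene symbol, which the authors made with tools whose roles are not given. The submitters' processing notes name TopHat2 2.0.13, Subread 1.5.0, featureCounts, Trim Galore 0.4.0 and the build hg19. The sources used here give no annotation, strand setting or handling of shared reads. Duplicate removal, which the table's name records, lowers high counts most where molecules carry no identifiers. Columns were matched to samples by the labels. From the authors' deposited comparison table the log2 fold change and adjusted p-value of the members were copied, and its p-values, mean log2 expression and t and log-odds scores, per the file headers, served for no test here. A deposited log2 batch-corrected table was not used here.

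The main test was edgeR 4.0.16 (filterByExpr with minimum count 10 and minimum total 15, TMM, robust quasi-likelihood, two-sided, Benjamini-Hochberg over 16873 genes), with no replicate term. It was checked on simulated counts with known changes. An SE is the unshrunken log2 fold change over the square root of F. Alternatives were RLE factors, DESeq2 1.42.0, limma-voom (limma 3.58.1), no filter, a CPM above 1 in 3 libraries, the replicate block, and leaving out each library or replicate number. Deviations from group means correlated by 0.102, 0.377 and 0.211 for numbers 1, 2 and 3. Number 1 of ASO-L1 correlated more with number 3 of SO-L1 (0.162), and number 1 of SO-L1 more with number 3 of ASO-L1 (0.156). These values therefore do not settle whether the numbers mark pairs. The numbers served as pairs in the replicate block, the differences within numbers and the fits without a number, not in the main test. Libraries of a group differed by more than counting noise (chi-square over degrees of freedom, 1.97 to 22.1). Exact permutation tests of 3 against 3 libraries (scipy 1.17.1) cannot go below 0.1. Named genes are the members, called partners, neighbours and nearest profiles. CBX2, FBRS, FBRSL1, SKP1, USP7, MGA, E2F6, HDAC2, YAF2, BAP1, ASXL1, FOXK1 and HCFC1 were named after their values were seen. Besides the genes counted, another gene of the canonical partner list was left out of the list and its counts and is not reported here. Per kb levels use GENCODE 29 lengths on GRCh38, another build than that of the counts. Members and lists were chosen with earlier results of these data known.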

Additional observations from a re-analysis of the deposited data

How the results depend on the processing

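Over 15 alternatives and 10 members, 137 of 150 values kept their direction and their side of the threshold, 10 lost a call, 3 gained one and 0 reversed. Members called higher ranged from 1 to 5 and members called lower stayed at 0 when 1 library or both libraries of a replicate number were left out, and all calls over tested genes from 1183 to 7197. Of all tested genes, 757 of 17011 were called higher without both libraries of replicate 1, where 1 member was. Without both libraries of replicate 2 it was 3726 of 17244, where 5 members were called higher. Partner genes called ranged from 0 to 11 for those higher and from 0 to 8 for those lower in the same fits. With the replicate block 23.3% of all tested genes were called higher and 22.5% lower. The block gave 10 partners higher and 10 lower and 5 members higher, adding PCGF5, and ended no call of a member. The cause of these differences was not tested. Fits without both libraries of a number keep 2 a group. PCGF5 had the fewest reads of the members, 139 to 186 a library.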
